A study of Mus musculus with 8 samples.

Results

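The leptin and insulin signalling genes of the hypothalamus are described here from 10 of the 55890 genes counted in hypothalamic RNA of female mice. They were taken by name and matched by Ensembl identifier. They are the receptor genes *Lepr* and *Insr*, the signal transducers *Jak2*, *Stat3*, *Irs1* and *Irs2*, the adaptor *Sh2b1*, the feedback inhibitors *Socs3* and *Ptpn1*, and the transcription factor *Foxo1*. All 10 passed the filter on low counts and were tested.

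RNA was sequenced from 16-week-old POMC-C451Af/f and control females, with 4 pools of each genotype and the RNA of 2 animals in each pool. The POMC-C451Af/f mice carry POMC-Cre together with the floxed C451Af/f allele of *Esr1*, so that estrogen receptor alpha loses its membrane-initiated signalling in cells with a history of POMC expression, which are a small part of the hypothalamus. The labels call the controls wildtype, whereas the methods of the study describe homozygous C451Af/f littermates, and neither source gives them the Cre. A group of mice with POMC-Cre alone was not analysed here, so the mutation and the Cre cannot be told apart in these counts. In a separate experiment the study found no significant differences between POMC-Cre and wildtype littermates in weights, sex steroids and body composition. The females were gonadal-intact, and the study reports less fat and more estradiol, testosterone and progesterone in POMC-C451Af/f females of this age. Effects of these and of the mutation itself cannot be told apart here. Since each library is a pair of animals, the spread between pools is not the spread between single animals. The total estimated count was between 36095253 and 48942116 per pool.

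Leptin from fat tissue binds the leptin receptor, the kinase JAK2 on its inner side then phosphorylates the receptor and STAT3, and STAT3 moves to the nucleus and induces target genes that include *Socs3*. Insulin binds its own receptor kinase, which phosphorylates the substrates IRS1 and IRS2 and so activates PI3K and AKT, and AKT keeps FOXO1 out of the nucleus. Both routes act in POMC and AgRP neurons of the arcuate nucleus, where they lower food intake, and both are damped by SOCS3 and by the phosphatase PTP1B, the product of *Ptpn1*. These steps are mostly phosphorylations, which RNA counts do not measure.

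*Esr1*, the mutated gene, was counted in all pools, between 9.997 CPM in POMC-C451Af/f replicate 3 and 16.0 CPM in control replicate 4. CPM are counts scaled to a common library size, with library sizes corrected by the TMM method. The log2 fold change of *Esr1* in POMC-C451Af/f over control pools was -0.23, with a standard error (SE) of 0.104, a 95% interval from -0.46 to -0.0047 and an adjusted p of 0.878 with edgeR. Its unadjusted p was 0.0462 with edgeR, 0.0336 with DESeq2 and 0.0630 with limma-voom, so that *Esr1* was lower in POMC-C451Af/f pools at an unadjusted threshold of 0.05 with edgeR and DESeq2, and not after adjustment. This rested in part on single pools. The log2 fold change was -0.13 (SE 0.0820, edgeR unadjusted p = 0.144) without control replicate 4, the pool with the most *Esr1*, and -0.14 (SE 0.125, edgeR unadjusted p = 0.292) without POMC-C451Af/f replicates 3 and 4, the 2 pools with the least. The edgeR unadjusted p was also over 0.05 without control replicate 2 and without POMC-C451Af/f replicate 1, 3 or 4. Counts per gene do not tell a mutated transcript from an intact one, so they do not check the genotype.

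The tissue label was compared with 10 genes of hypothalamic neurons, and all 10 were counted in every pool. The most abundant of them, *Otp*, a transcription factor of neuroendocrine neurons, was between 38.4 and 65.9 CPM. Their summed level was 177, 197, 141 and 156 CPM in POMC-C451Af/f replicates 1 to 4. In control replicates 1 to 4 it was 216, 168, 181 and 179 CPM. POMC-C451Af/f replicates 3 and 4 were thus lowest in hypothalamic genes and control replicate 1 was highest.

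The same pools stood apart in genes of neighbouring tissues. *Slc6a3*, the dopamine transporter gene of midbrain neurons, was at 90.0 and 53.8 CPM in POMC-C451Af/f replicates 3 and 4, at 36.4 and 12.3 CPM in replicates 1 and 2, and between 4.24 and 26.4 CPM in controls. The 8 genes of the midbrain dopaminergic list, of which *Aldh1a1* was the most abundant, summed to 184, 134, 305 and 214 CPM in POMC-C451Af/f replicates 1 to 4. The control pools, in the same order, summed to 114, 118, 141 and 152 CPM. Anterior pituitary genes stood out in control replicate 1, where the 9 genes of that list, led by the prolactin gene *Prl*, summed to 1457 CPM against 19.3 to 226 CPM in the other pools. Of these 9 genes *Lhb* had no count in control replicate 4, and no marker gene of any list was at 0 in all pools. For a part of the results, values are therefore also given without control replicate 1 or without POMC-C451Af/f replicates 3 and 4.

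The other marker lists, apart from the leptomeningeal one given with *Lepr*, varied less. The summed level ranged from 2422 to 2901 CPM for 5 neuronal genes (most abundant *Snap25*), from 1229.6 to 1303 CPM for 5 astrocyte genes (*Slc1a3*), from 164 to 178 CPM for 5 microglial genes (*Csf1r*) and from 4480.3 to 6495 CPM for 5 oligodendrocyte genes (*Mbp*), which were lowest in control replicate 1 and highest in POMC-C451Af/f replicate 3. It ranged from 127 to 155 CPM for 6 tanycyte genes (*Col25a1*), from 33.7 to 41.7 CPM for 8 choroid plexus genes (*Clic6*) and from 288 to 322 CPM for 8 genes of endothelium and mural cells (*Rgs5*). An unadjusted p under 0.05 between genotypes was found with edgeR for 6 of the 8 midbrain dopaminergic genes, with a median log2 fold change of 0.77 over the list, and for 3 of the 5 oligodendrocyte genes, with a median of 0.17. It was also found for 2 of 5 astrocyte, 2 of 5 microglial and 1 of 6 tanycyte genes, and for 5.10% of all tested genes. The mean log2 level of a list was compared between genotypes by a two-sided exact permutation test. The p was 0.0571 for the microglial list, the lowest of the 11, and 0.0857 for the midbrain dopaminergic list (adjusted p = 0.471 for both). The smallest p that 4 pools against 4 allow is 0.0286, so 1 list alone could not pass 0.05 after adjustment over 11.

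None of the 10 genes was called between the genotypes. A gene was called at an adjusted p of 0.05 and an absolute log2 fold change over 0.5, with p adjusted by Benjamini-Hochberg over all tested genes, and the quasi-likelihood test of edgeR called 0 of the 10. Of all 18637 tested genes it called 0.0215%, with 0.0161% higher and 0.00537% lower in POMC-C451Af/f pools. DESeq2 and limma-voom called 0 of the 10 as well. An unadjusted p under 0.05 was found for 0 of the 10 with each of edgeR, DESeq2 and limma-voom, against 5.10% of all tested genes with edgeR. The POMC-C451Af/f pools lay wholly on one side of the control pools in 0 of the 10, against 2.78% of all tested genes. The median log2 fold change of the 10 genes was 0.0047, that of all tested genes was 0.00085, and 6 of the 10 were above 0 and 4 below.

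**Figure D1:**
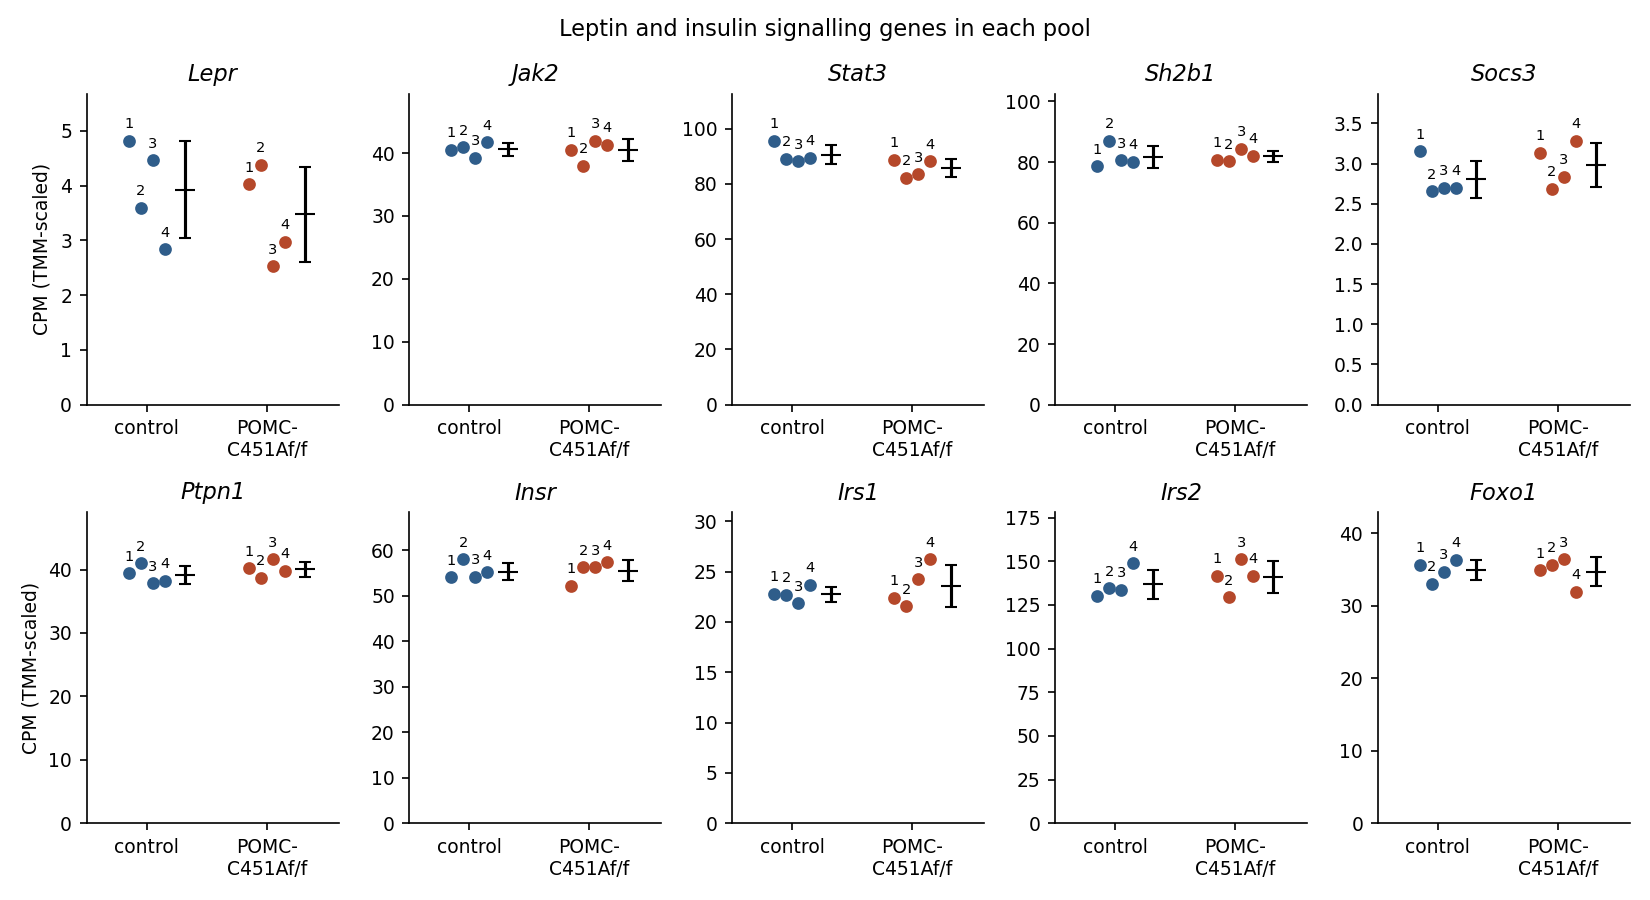
CPM of each of the 10 genes (vertical axes from 0) in the 4 control pools (blue) and the 4 POMC-C451Af/f pools (red), with the replicate number above each point and the mean ± SD of each group beside it. The groups overlap for every gene, and *Lepr*, from 2.53 to 4.81 CPM, spreads most for its level.

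The leptin receptor gene varied most. *Lepr* (ENSMUSG00000057722, chr4:101717404-101815352 on the plus strand) was at 4.02, 4.38, 2.53 and 2.98 CPM in POMC-C451Af/f replicates 1 to 4 and at 4.81, 3.60, 4.46 and 2.83 CPM in control replicates 1 to 4. High and low pools occurred in both genotypes, and the groups overlapped over most of their range. The coefficient of variation over the 8 pools was 22.9%, against 3.24% to 8.78% for the other 9 genes. These values rested on 90.0 to 217.5 estimated counts per pool. *Socs3*, at 100.3 to 132 estimated counts per pool, had a coefficient of variation of 8.78%. The part of counting error in the *Lepr* spread was not tested. *Lepr* had a log2 fold change of -0.18 (SE 0.205) at an edgeR adjusted p of 0.916.

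Its size depended on single pools, and its sign held with any 1 pool left out but not without POMC-C451Af/f replicates 3 and 4 together. The log2 fold change of *Lepr* was -0.066 (SE 0.214) without control replicate 1 and 0.096 (SE 0.201) without POMC-C451Af/f replicates 3 and 4. With single pools left out it ranged from -0.051 without POMC-C451Af/f replicate 3 to -0.31 without POMC-C451Af/f replicate 2, and it was -0.30 without control replicate 4. The gene has 7 annotated transcripts, and gene counts do not distinguish the long, signalling form of the receptor from its short forms. Fewer cells with *Lepr* and less *Lepr* RNA per cell cannot be told apart in bulk tissue, which holds for every gene described here.

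Besides neurons, the leptomeninges express *Lepr*, so its level was set beside 8 leptomeningeal genes. Their summed level was 77.2, 131, 65.1 and 63.1 CPM in POMC-C451Af/f replicates 1 to 4. It was 131, 78.5, 135 and 56.1 CPM in control replicates 1 to 4, with the collagen gene *Col1a2* as the most abundant. The 3 pools with the highest sums, POMC-C451Af/f replicate 2 and control replicates 1 and 3, were also the 3 pools with the most *Lepr*. In mean log2(CPM + 0.5) these 3 pools lay between 3.76 and 3.86 and the other 5 between 2.45 and 3.004. Because the pools fell into these separate sets, each with fewer than 6 pools, no pooled coefficient is given, and the relation could not be tested within either set. Between genotypes the mean log2 level of this list differed by -0.21 (two-sided exact permutation p = 0.714, adjusted p = 0.880 over 11 marker lists).

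*Slc13a4*, a sulfate transporter gene of the leptomeninges, spanned a far wider range in the same pools. It was at 3.90, 14.5, 2.36 and 2.17 CPM in POMC-C451Af/f replicates 1 to 4 and at 15.2, 5.48, 19.5 and 1.32 CPM in control replicates 1 to 4. The growth factor gene *Igf2*, which the leptomeninges also express, was at 45.2, 103.5, 37.6 and 36.8 CPM and at 92.4, 47.7, 119 and 29.6 CPM in the same order. The part of leptomeningeal tissue in the *Lepr* level was not tested.

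**Figure D2:**
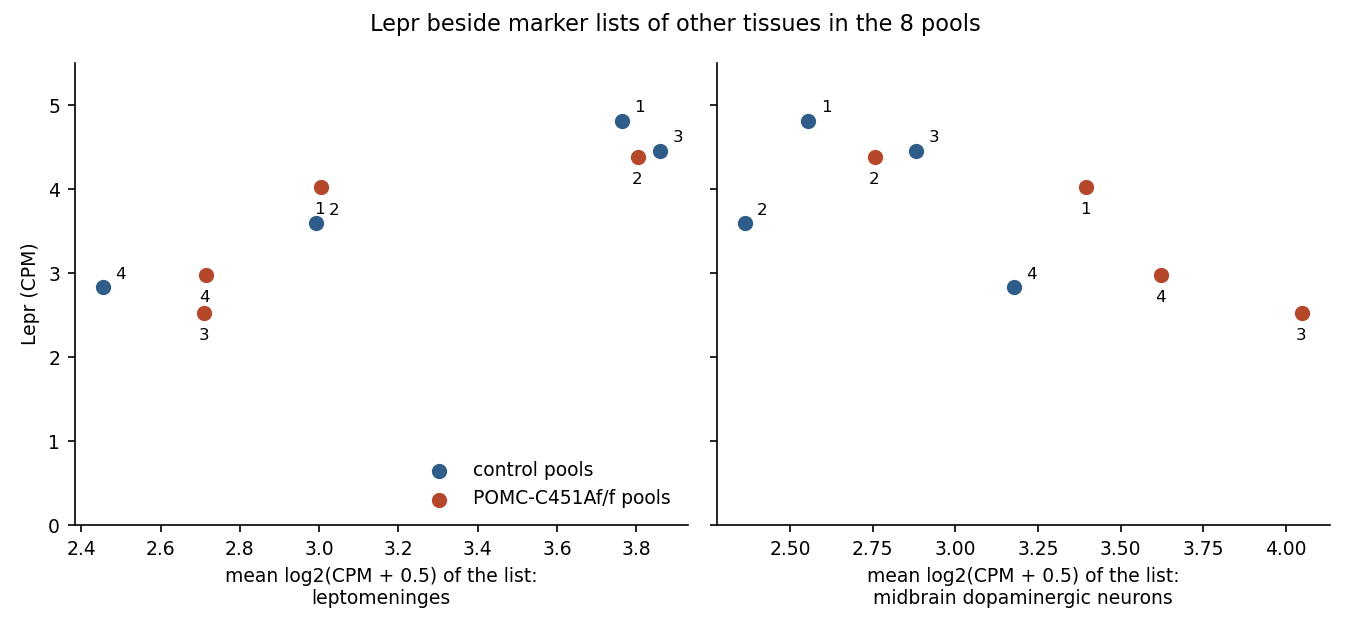
*Lepr* in CPM (vertical axes) against the mean log2(CPM + 0.5) of the leptomeningeal list (left) and of the midbrain dopaminergic list (right), 1 point per pool with its replicate number, control pools in blue and POMC-C451Af/f pools in red. On the left, 3 pools between 3.76 and 3.86 hold the highest *Lepr*, and on the right POMC-C451Af/f replicates 3 and 4, at 4.05 and 3.62, are among the 3 pools with the least.

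Against the midbrain dopaminergic list, *Lepr* had a Pearson r of -0.72 over the 8 pools (two-sided exact permutation p = 0.0475, adjusted p = 0.317 over 60 relations). Spearman's rho was -0.64 (exact permutation p = 0.0962, adjusted p = 0.763), and r was -0.76 without the 2 pools farthest from the median of the list. The 60 relations were those of the 10 genes with 6 marker lists, which were choroid plexus, leptomeninges, endothelium and mural cells, tanycytes, midbrain dopaminergic neurons and anterior pituitary. None of the 60 passed the adjustment by either coefficient, the 10 with the leptomeningeal list included. The lowest adjusted p of the 60 was 0.132 by r and 0.0685 by rho, both for *Jak2* with the leptomeningeal list, followed by r for *Lepr* and *Irs2* with that list at 0.141.

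Among all 18636 other tested genes, those whose log2 level was most like that of *Lepr* over the 8 pools were *Abhd14b* (Pearson r 0.993), *Pdgfd* (0.993) and *Trappc3* (0.985). *Pdgfd*, a growth factor gene of the platelet-derived growth factor family, ran from 5.98 CPM in POMC-C451Af/f replicate 3 to 8.26 CPM in control replicate 3. A coefficient over 0.9 with *Lepr* was found for 169 genes and one under -0.9 for 123 genes. With 8 pools and this many genes, such values are a description of the pools.

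Of the transducers below the leptin receptor, *Jak2*, the receptor's kinase, was nearly level. *Jak2* (ENSMUSG00000024789, chr19:29251828-29313080 on the plus strand) ranged from 38.0 to 41.9 CPM over the 8 pools, and its log2 fold change was -0.0052 (SE 0.0397, edgeR adjusted p = 0.991). The 95% interval ran from -0.093 to 0.083, and the value was -0.046 (SE 0.0449) without POMC-C451Af/f replicates 3 and 4.

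*Stat3*, the transcription factor that JAK2 activates, came closest to separating the genotypes. *Stat3* (ENSMUSG00000004040, chr11:100885098-100939540 on the minus strand) was at 88.7, 82.3, 83.5 and 88.3 CPM in POMC-C451Af/f replicates 1 to 4 and at 95.5, 89.2, 88.2 and 89.5 CPM in control replicates 1 to 4. POMC-C451Af/f replicates 1 and 4 lay just above control replicate 3, and the groups overlapped only there. The mean of the 4 pools was 85.7 ± 3.28 CPM (SD) for POMC-C451Af/f mice, against 90.6 ± 3.34 CPM (SD) for controls. This is a log2 fold change of -0.081 (SE 0.0402), with an edgeR adjusted p of 0.878.

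The difference was small, between -0.10 and -0.056 in all alternatives. Its 95% interval ran from -0.17 to 0.0084, and it was -0.056 without control replicate 1, the pool with the most *Stat3*, and -0.083 without POMC-C451Af/f replicates 3 and 4. With the filter and scaling fitted again without POMC-C451Af/f replicate 1, the groups no longer overlapped, although on the values above replicate 4 still lay just over control replicate 3. The fit gave a log2 fold change of -0.10 and an edgeR unadjusted p of 0.0449 (adjusted p = 0.869). Without control replicate 3 they did not overlap either, at -0.094 (edgeR adjusted p = 0.988). The adjusted p was 0.649 or more in all alternatives. In the fits without these pools 5.57% and 4.62% of all tested genes did not overlap. Exons of *Stat3* overlap those of *Stat5a* on the opposite strand in the annotation. The library kit keeps strand, but whether the counting used it is not given in the sources used here.

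*Sh2b1*, the adaptor that strengthens JAK2 and insulin receptor signalling, did not separate the genotypes. *Sh2b1* (ENSMUSG00000030733, chr7:126466994-126475424 on the minus strand) ranged from 78.7 to 87.0 CPM, and its log2 fold change was 0.0044 (SE 0.0392, edgeR adjusted p = 0.992). The 95% interval was -0.082 to 0.091.

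Of the feedback inhibitors, *Socs3* is itself induced by STAT3, and its product blocks the leptin receptor and JAK2. *Socs3* was the one gene of the 10 with the STAT motif in a promoter window, shown here because it is the textbook route of this feedback. The motif searched was TTCNNNGAA, which reads the same on both strands, in windows from 250 bases before to 50 bases after each transcription start (RefSeq, GRCm38.p6). A match was present in 8.30% of all 32851 windows and in 1 of the 11 windows of 9 of the 10 genes, with no window for *Insr*. The stretch lies at chr11:117969502-117969530 on the minus strand, inside the annotated gene, with the motif, in capitals, at -154 from the start.
*Socs3*: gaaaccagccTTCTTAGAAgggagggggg

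The match describes the letters of the window and not binding. *Socs3* (ENSMUSG00000053113, chr11:117966079-117970047 on the minus strand) was at 3.14, 2.69, 2.84 and 3.28 CPM in POMC-C451Af/f replicates 1 to 4 and at 3.15, 2.66, 2.70 and 2.70 CPM in control replicates 1 to 4. Control replicate 1 lay above the other 3 controls, which were nearly equal, and both groups covered nearly the same range. It had a log2 fold change of 0.092 (SE 0.115, edgeR adjusted p = 0.920), which was 0.15 (SE 0.121) without control replicate 1 and 0.044 (SE 0.123) without POMC-C451Af/f replicate 4. The gene had 100.3 to 132 estimated counts per pool, and its 95% interval, from -0.16 to 0.35, was the widest after that of *Lepr*.

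*Ptpn1*, whose product PTP1B removes phosphates from JAK2 and from the insulin receptor, ranged from 37.8 to 41.6 CPM. *Ptpn1* (ENSMUSG00000027540) lies at chr2:167932057-167979385 on the plus strand. Its log2 fold change was 0.035 (SE 0.0386, edgeR adjusted p = 0.910), with a 95% interval from -0.051 to 0.12. With single pools left out it ranged from 0.016 to 0.056, and it was 0.013 (SE 0.0461) without POMC-C451Af/f replicates 3 and 4.

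The ratio of an inhibitor to its receptor was compared within each pool, as the difference of log2(CPM + 0.5). The log2 ratio of *Socs3* to *Lepr* was -0.32, -0.61, 0.14 and 0.12 in POMC-C451Af/f replicates 1 to 4 and -0.54, -0.38, -0.63 and -0.058 in control replicates 1 to 4. It was highest in POMC-C451Af/f replicates 3 and 4, the pools with the least *Lepr* in that group. The mean was 0.23 higher in POMC-C451Af/f pools (two-sided exact permutation p = 0.314, adjusted p = 0.762 over 4 ratios), and the difference was -0.063 without POMC-C451Af/f replicates 3 and 4. For *Ptpn1* to *Lepr* the difference was 0.19 (exact permutation p = 0.457, adjusted p = 0.762), and -0.097 without POMC-C451Af/f replicates 3 and 4. For *Ptpn1* to *Insr* it was 0.030 (exact permutation p = 0.571, adjusted p = 0.762).

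On the insulin side, the receptor gene *Insr* (ENSMUSG00000005534, chr8:3122061-3279617 on the minus strand) was at 52.1, 56.2, 56.2 and 57.3 CPM in POMC-C451Af/f replicates 1 to 4 and at 54.0, 57.9, 54.1 and 55.1 CPM in control replicates 1 to 4. The pools of both genotypes were interleaved. The fitted log2 fold change was 0.0049 (SE 0.0411, edgeR adjusted p = 0.992), and the 95% interval ran from -0.086 to 0.096. The genes most like *Insr* over the 8 pools were *0610010F05Rik* (Pearson r 0.97), *Foxm1* (0.96) and *6230400D17Rik* (0.96), of which *Foxm1* and *6230400D17Rik* were below 2 CPM in each pool.

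*Irs1* and *Irs2* encode the substrates that carry the signal from the insulin receptor to PI3K, and *Irs2* is the one known for energy balance in the hypothalamus. *Irs1* (ENSMUSG00000055980, chr1:82233101-82291416 on the minus strand) ranged from 21.5 to 26.2 CPM, with a log2 fold change of 0.052 (SE 0.0602, edgeR adjusted p = 0.913) that was -0.048 without POMC-C451Af/f replicates 3 and 4. *Irs2* (ENSMUSG00000038894, chr8:10984681-11008458 on the minus strand) was at 142, 129, 151 and 142 CPM in POMC-C451Af/f replicates 1 to 4 and at 130.2, 135, 134 and 149 CPM in control replicates 1 to 4. The groups overlapped over nearly the whole range. For *Irs2* the log2 fold change was 0.044 (SE 0.0542, edgeR adjusted p = 0.919), which ranged from 0.0087 to 0.085 with single pools left out and was -0.011 without POMC-C451Af/f replicates 3 and 4. The log2 ratio of *Irs2* to *Irs1* was 2.56 in both groups (difference -0.0045, exact permutation p = 0.943, adjusted p = 0.943).

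*Foxo1*, the transcription factor at the end of the insulin route, ranged from 31.9 to 36.4 CPM. *Foxo1* (ENSMUSG00000044167) lies at chr3:52268336-52353221 on the plus strand. For *Foxo1* the log2 fold change was -0.0090 (SE 0.0479, edgeR adjusted p = 0.986), and the 95% interval ran from -0.11 to 0.097.

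**Figure D3:**
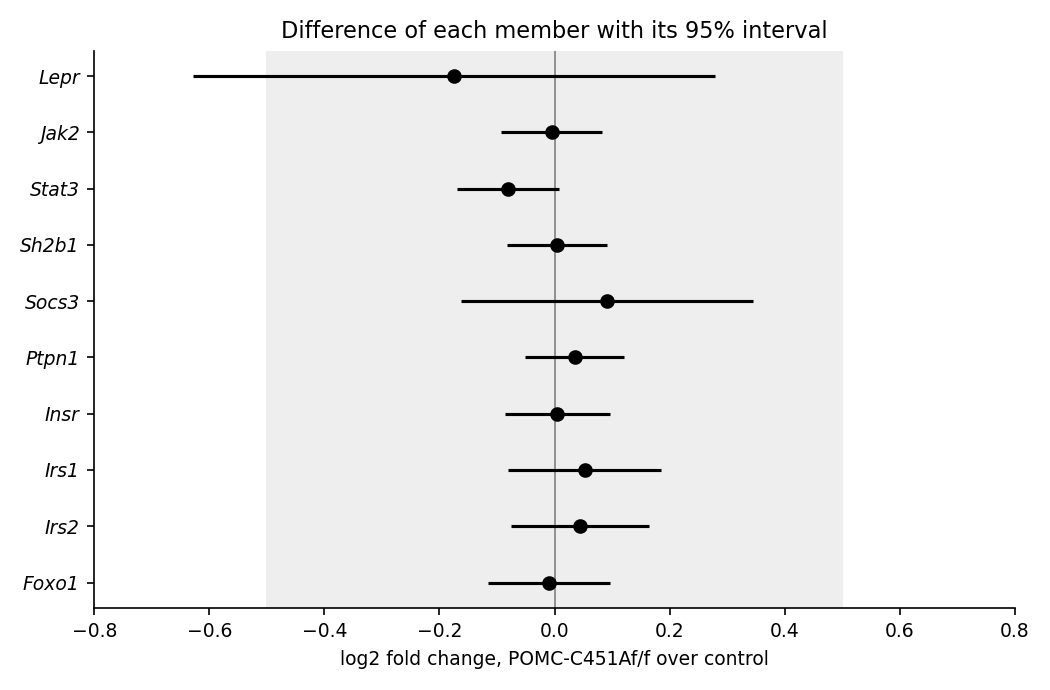
Log2 fold change of POMC-C451Af/f over control pools (horizontal axis) for the 10 genes, with bars for the 95% interval of edgeR's quasi-likelihood fit and the range from -0.5 to 0.5 shaded. The bars of 9 genes stay inside the shaded range, and that of *Lepr* runs from -0.63 to 0.28.

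The intervals limit what the 8 pools leave possible. For 9 of the 10 genes the whole 95% interval lay within the fold change threshold of 0.5 in either direction. For 8 of these it lay within a fold of 0.889 to 1.14, and for *Socs3* within 0.894 to 1.27. For *Lepr* it reached from 0.646-fold to 1.21-fold, so the interval holds decreases beyond the threshold. The median standard error of the 10 genes was 0.0445, against 0.0745 for all tested genes.

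Levels of different genes were compared per kilobase of the longest annotated protein-coding transcript. In controls the order in CPM per kilobase was *Sh2b1* (24.0), *Irs2* (21.6), *Stat3* (14.996), *Ptpn1* (9.28), *Jak2* (8.07), *Insr* (5.91), *Foxo1* (4.03), *Irs1* (2.49), *Socs3* (1.098) and *Lepr* (0.708), and it was the same order in POMC-C451Af/f pools. Of the 9 pairs of neighbours, 8 did not overlap over the 8 pools. *Sh2b1* and *Irs2* overlapped in range, with 23.2 to 25.6 and 20.5 to 23.9 CPM per kilobase, but within a pool *Sh2b1* was above *Irs2* in 8 of 8. The scarcest genes were thus the leptin receptor and the inhibitor that it induces, while *Irs2* stood several fold above *Irs1*. The length is a choice, and with the union of all annotated exons *Irs2* (21.6) came before *Sh2b1* (20.8), and was above it within 7 of 8 pools, and *Jak2* (8.07) came before *Ptpn1* (7.07). By that length *Foxo1* (4.03) came before *Insr* (4.02) in controls and after it in POMC-C451Af/f pools, so the genotypes no longer shared 1 order, and 7 of the 9 pairs of neighbours did not overlap.

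**Figure D4:**
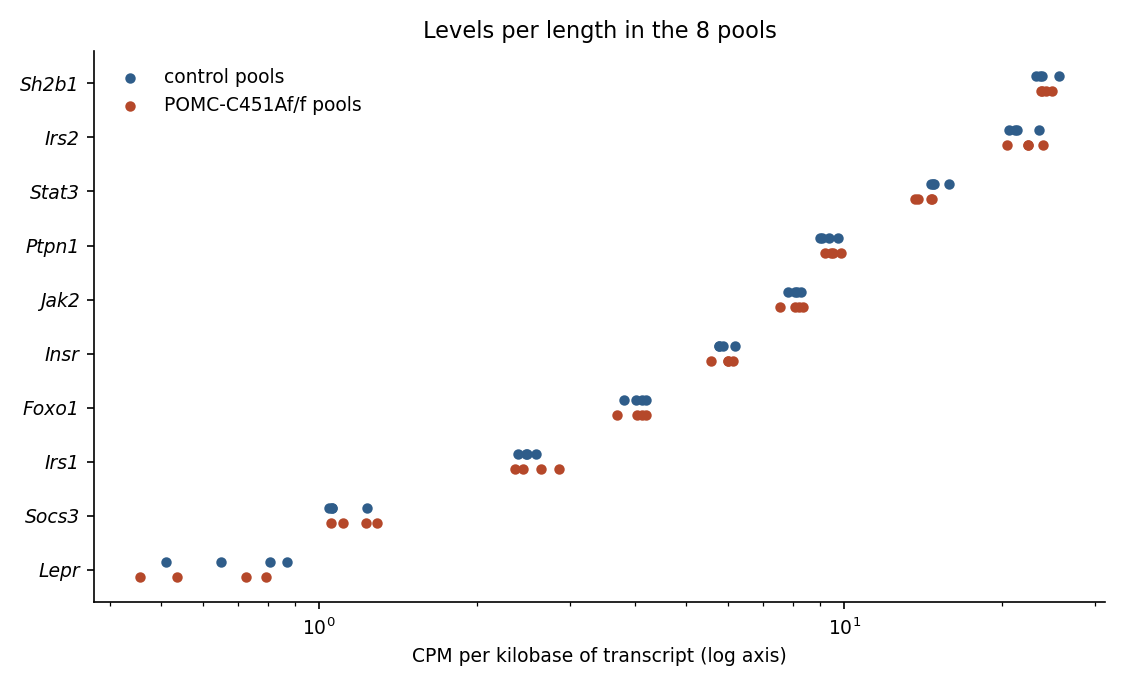
CPM per kilobase of transcript (logarithmic horizontal axis) of the 10 genes, ordered by the control mean, with 1 point per pool, control pools in blue and POMC-C451Af/f pools in red. *Sh2b1* and *Irs2* share part of their range, and the other neighbours are separate.

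Among themselves, the 10 genes gave 45 pairs, and none passed the adjustment over 45 by Pearson's r or Spearman's rho. The pair with the lowest p for r was *Lepr* with *Irs2*, at a Pearson r of -0.90 (two-sided exact permutation p = 0.00461, adjusted p = 0.208) and a rho of -0.90 (exact permutation p = 0.00456, adjusted p = 0.0685). The coefficient r was -0.73 without the 2 pools farthest from the median of *Lepr*. Pools with more *Lepr* thus had less *Irs2*, in both genotypes. Without POMC-C451Af/f replicate 1 this pair passed by r, with an r of -0.94 over 7 pools (exact permutation p = 0.000794, adjusted p = 0.0357), and did not pass by rho, at -0.89 (exact permutation p = 0.0123, adjusted p = 0.268).

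*Jak2* and *Irs2* ran in the same direction, with an r of 0.79 (exact permutation p = 0.0148, adjusted p = 0.287) and a rho of 0.95 (exact permutation p = 0.00114, adjusted p = 0.0513). The coefficient r was 0.85 without the 2 pools farthest from the median of *Jak2*. The 3 pools with the highest leptomeningeal sums held the lowest *Irs2* and the lowest *Jak2* of the 8. *Irs2* also had an r of 0.82 with the midbrain dopaminergic list (exact permutation p = 0.0149, adjusted p = 0.223), a rho of 0.76 (exact permutation p = 0.0368, adjusted p = 0.441) and an r of 0.78 without the 2 farthest pools. The part of neighbouring tissue in these relations was not tested.

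The other genes of the pathway were followed in 7 lists of 85 genes, of which 81 passed the filter. The 4 that did not were the ligand genes *Lep*, *Ins1*, *Ins2* and *Adipoq*. *Lep* and *Ins1* had no count in any pool, *Ins2* had at most 1 count and *Adipoq* at most 3, so that RNA of leptin and insulin was not detectable, or at 1 count, at this depth. None of the 81 was called by edgeR, DESeq2 or limma-voom. An unadjusted p under 0.05 was found for 8 of the 81 with edgeR, 7 with DESeq2 and 8 with limma-voom, or 9.88% with edgeR against the 5.10% of all tested genes. Of the 8, 3 were higher and 5 lower in POMC-C451Af/f pools, where 2.70% and 2.39% of all tested genes were. The genotypes did not overlap in 3 of the 81, or 3.70% against 2.78% of all tested genes, with 1 higher and 2 lower against 1.34% and 1.45% of all tested genes. The count of 3 became larger without some single pools, as did the share of all tested genes. It was 11 without control replicate 2 and 8 without control replicate 4 (6.55% and 6.58% of all tested genes), and 7 without POMC-C451Af/f replicate 1 and 9 without POMC-C451Af/f replicate 2 (5.57% and 8.59%). Over the 81 genes the median log2 fold change was -0.0090, with 36 above 0 and 45 below.

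**Figure D5:**
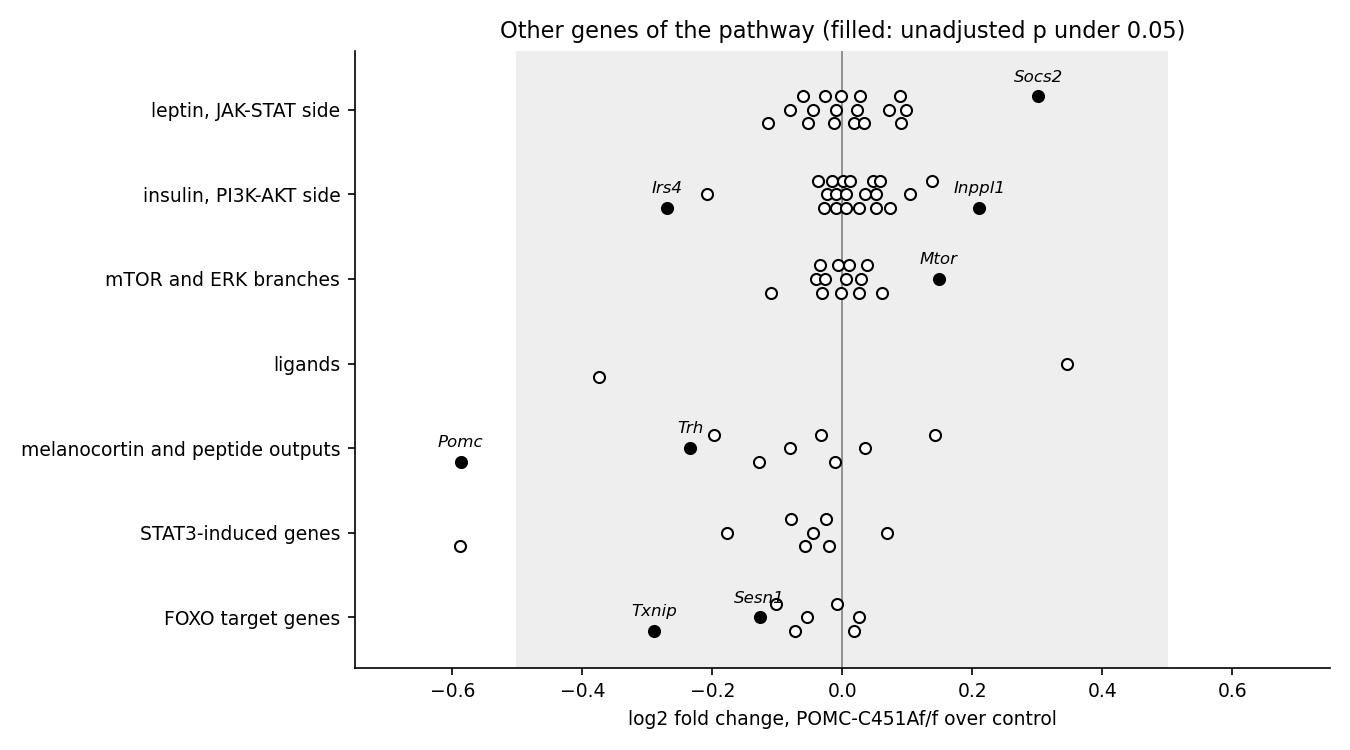
Log2 fold change of POMC-C451Af/f over control pools (horizontal axis) for the 81 tested genes of the 7 pathway lists (1 line per list), with filled and named points for an unadjusted p under 0.05 and the range from -0.5 to 0.5 shaded. Most points lie near 0, and the 8 named genes lie between -0.59 and 0.30.

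In the insulin and PI3K-AKT list, 2 of 22 genes (9.09%) had an unadjusted p under 0.05, in opposite directions, against 5.10% of all tested genes. *Inppl1* encodes SHIP2, a phosphatase that removes the lipid signal made by PI3K. It was at 38.9, 40.8, 38.9 and 39.2 CPM in POMC-C451Af/f replicates 1 to 4 and at 35.0, 35.3, 33.1 and 33.1 CPM in control replicates 1 to 4. Every POMC-C451Af/f pool lay above every control pool. The difference was 0.21 on the log2 scale (SE 0.0368), under the threshold of 0.5, with an adjusted p of 0.198 by edgeR and 0.0172 by DESeq2. Over all alternatives the adjusted p ranged from 0.0172 to 0.836.

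*Inppl1* lies on chromosome 7 (chr7:101822632-101838229), in a stretch where other genes also differed. Of the 191 other tested genes that start within 10 Mb of it, 16.8% had an unadjusted p under 0.05 and 13.1% did not overlap between genotypes, against 4.97% and 2.67% of the remaining tested genes. This stretch was chosen after its values were seen, and its part in the *Inppl1* difference was not tested.

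*Irs4*, a further receptor substrate that the hypothalamus expresses strongly, was at 123, 119, 103 and 107 CPM in POMC-C451Af/f replicates 1 to 4 and at 139.7, 123, 140.3 and 143 CPM in control replicates 1 to 4. Only control replicate 2 reached down to the POMC-C451Af/f range. On the log2 scale *Irs4* differed by -0.27 (SE 0.0655), with an adjusted p of 0.878 by edgeR and 0.0531 by DESeq2, the lowest of all alternatives. The difference was -0.17 (SE 0.0623) without POMC-C451Af/f replicates 3 and 4, the pools with the least *Irs4* and the lowest sum of hypothalamic genes, whose part in it was not tested. *Igf1r*, the receptor for insulin-like growth factor 1, was at 65.1 to 71.5 CPM with a log2 fold change of 0.035 (SE 0.0377), and *Trib3*, an AKT inhibitor, was at 0.403 to 1.02 CPM with a log2 fold change of -0.21 (SE 0.294).

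In the leptin and JAK-STAT list, 1 of 18 genes (5.56%) had an unadjusted p under 0.05, near the 5.10% of all tested genes. *Socs2*, a relative of *Socs3* that restrains growth hormone signalling, was at 13.0, 12.8, 16.7 and 13.4 CPM in POMC-C451Af/f replicates 1 to 4 and at 12.4, 13.3, 9.84 and 9.88 CPM in control replicates 1 to 4. Control replicates 1 and 2 lay in or near the POMC-C451Af/f range. *Socs2* had a log2 fold change of 0.30 (SE 0.119, edgeR adjusted p = 0.878), and 0.19 (SE 0.131) without POMC-C451Af/f replicates 3 and 4. Its edgeR unadjusted p was 0.0952 without POMC-C451Af/f replicate 3, 0.0852 without control replicate 3 and 0.0808 without control replicate 4. It was also over 0.05 with the replicate block, where the log2 fold change was 0.31. The next by size were *Socs1*, another inhibitor of JAK kinases, at -0.11 (SE 0.164), and the phosphatase gene *Ptpn2* at 0.098 (SE 0.0646).

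In the list of mTOR and ERK branches, 1 of 14 genes (7.14%) had an unadjusted p under 0.05, against 5.10% of all tested genes. *Mtor*, the growth kinase downstream of AKT, was at 140.5, 133, 147 and 153 CPM in POMC-C451Af/f replicates 1 to 4 and at 121, 132, 128 and 137 CPM in control replicates 1 to 4. Control replicate 4 lay above the lowest POMC-C451Af/f pool. *Mtor* had a log2 fold change of 0.15 (SE 0.0507, edgeR adjusted p = 0.878), and 0.081 (SE 0.0518) without POMC-C451Af/f replicates 3 and 4. *Eif4ebp1*, a translation repressor that mTOR inactivates, was at -0.11 (SE 0.135) and *Sos1*, which links receptors to ERK, at 0.060 (SE 0.0659), which ranged from 0.012 to 0.12 with single pools left out.

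The targets of the transcription factors were read in 2 lists. In that of STAT3-induced genes 0 of 8 had an unadjusted p under 0.05 with edgeR, DESeq2 or limma-voom, against 5.10% of all tested genes with edgeR. A log2 fold change below 0 was found for 7 of the 8, against 49.6% of all tested genes, with a median of -0.051. *Socs3*, which STAT3 also induces, is not in this list and went the other way. Its log2 fold change was 0.092 (SE 0.115), and 0.044 to 0.15 with single pools left out. The genes of the list furthest from 0 were *Bcl3* at -0.59 (SE 0.369), *Cebpd* at -0.18 (SE 0.146) and *Osmr* at -0.078 (SE 0.125). Without POMC-C451Af/f replicates 3 and 4, *Cebpd* was at -0.019 (SE 0.142). *Bcl3*, a regulator of NF-kappaB, was low, from 0.337 to 1.39 CPM, and highest in control replicate 1.

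In the list of FOXO targets, 2 of 8 genes (25.0%) had an unadjusted p under 0.05, against 5.10% of all tested genes. Both were lower in POMC-C451Af/f pools, where 2.39% of all tested genes were lower at this threshold. The median log2 fold change was -0.064, against 0.00085 for all tested genes. Both genes with a p under 0.05 carry the FOXO motif TGTTTAC, searched on both strands, in a promoter window, as did 3.65% of all 32851 windows, 7 of the 90 windows of the pathway lists and 0 of the 11 windows of the 10 genes. The other 5 pathway genes with this motif, 1 of them in the same list, had unadjusted p values from 0.619 to 0.938 with edgeR. The stretches are shown because they belong to these 2 genes, with the motif in capitals. That of *Sesn1* lies at chr10:41810586-41810612 on the plus strand, in an exon, and that of *Txnip* at chr3:96557826-96557852 on the plus strand, before the gene and with the motif read from the other strand.
*Sesn1*: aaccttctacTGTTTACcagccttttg
*Txnip*: tggaggcctgGTAAACAagggccaagt

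*Sesn1*, an inhibitor of mTOR complex signalling, was at 50.2, 49.8, 51.2 and 48.6 CPM in POMC-C451Af/f replicates 1 to 4 and at 57.1, 53.7, 54.0 and 53.4 CPM in control replicates 1 to 4. All POMC-C451Af/f pools lay below all control pools. The difference was small, at a log2 fold change of -0.13 (SE 0.0359, edgeR adjusted p = 0.878), and -0.12 (SE 0.0437) without POMC-C451Af/f replicates 3 and 4.

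*Txnip*, which lowers glucose uptake, was at 38.1, 39.6, 33.5 and 27.4 CPM in POMC-C451Af/f replicates 1 to 4 and at 47.8, 40.2, 43.1 and 38.3 CPM in control replicates 1 to 4. Here control replicate 4 lay within the POMC-C451Af/f range. Its log2 fold change was -0.29 (SE 0.106, edgeR adjusted p = 0.878), and -0.12 (SE 0.0805) without POMC-C451Af/f replicates 3 and 4. Its edgeR unadjusted p was 0.0656 without control replicate 1. *Klf15*, a regulator of amino acid and glucose metabolism, was at -0.10 (SE 0.0722), which was -0.028 (SE 0.0469) without POMC-C451Af/f replicate 4 and -0.066 (SE 0.0482) without POMC-C451Af/f replicates 3 and 4.

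The neuropeptides and receptors that leptin and insulin act on showed 2 of 9 genes (22.2%) with an unadjusted p under 0.05 with edgeR. Of all tested genes, 5.10% had such a p. Both genes were lower in POMC-C451Af/f pools, where 2.39% of all tested genes were lower at this threshold. The 2 genes were *Trh* and *Pomc*, and with DESeq2 it was *Trh* alone. *Trh*, the thyrotropin-releasing hormone gene, which leptin is known to stimulate, was at 74.7, 82.7, 65.7 and 82.0 CPM in POMC-C451Af/f replicates 1 to 4 and at 94.1, 86.3, 89.8 and 88.6 CPM in control replicates 1 to 4. Each POMC-C451Af/f pool lay below each control pool. The log2 fold change of *Trh* was -0.23 (SE 0.0671, edgeR adjusted p = 0.878), and -0.19 (SE 0.0542) without POMC-C451Af/f replicates 3 and 4.

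*Pomc* itself had a log2 fold change of -0.59 (SE 0.237, edgeR adjusted p = 0.878), which was -0.28 (SE 0.151) without control replicate 1, the pool rich in pituitary genes, and -0.32 (SE 0.266) without POMC-C451Af/f replicates 3 and 4. Its unadjusted p was 0.0319 with edgeR, 0.0405 with limma-voom, 0.0551 with DESeq2 and 0.102 with robust estimation in edgeR. With edgeR it was 0.0971 without control replicate 1, 0.0765 without POMC-C451Af/f replicate 3 and 0.0897 without POMC-C451Af/f replicate 4. *Agrp*, the gene of the opposing arcuate neurons, was at 1.14 to 4.41 CPM with a log2 fold change of -0.13 (SE 0.329), and *Npy*, of the same neurons, at 9.73 to 20.7 CPM with 0.035 (SE 0.220). Without POMC-C451Af/f replicates 3 and 4, the pools with the least of both in that group, these were 0.34 for *Agrp* and 0.38 for *Npy*, and *Npy* had an unadjusted p of 0.0475 by edgeR. *Mc4r*, the receptor for the *Pomc* product, had a log2 fold change of -0.20 (SE 0.118).

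Of the ligands, 2 could be tested. *Igf1* was at 4.54 to 9.18 CPM with a log2 fold change of 0.35 (SE 0.178, edgeR adjusted p = 0.878), highest in POMC-C451Af/f replicate 3. It was 0.056 without POMC-C451Af/f replicates 3 and 4. The edgeR unadjusted p of *Igf1* was under 0.05 with no filter and without POMC-C451Af/f replicate 1, POMC-C451Af/f replicate 2 or control replicate 2. Its adjusted p was 0.532 or more in all alternatives. *Igf2* had a log2 fold change of -0.37 (SE 0.436, edgeR adjusted p = 0.916), which ranged from -0.86 to -0.021 with single pools left out and was 0.040 without POMC-C451Af/f replicates 3 and 4. Its level is given above beside the leptomeningeal genes.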

How the data were processed

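Hypothalamic poly(A) RNA of 8 pools was sequenced with a stranded kit. Per the methods of the study, the authors quantified reads with Salmon 1.10 against GENCODE vM32 and summed them to genes with tximport, and they deposited the estimated counts without normalization. A second deposited table holds the authors' DESeq2 comparison (fold changes, standard errors and p-values) and was not used. Identifiers were matched to symbols and GRCm38 positions of GENCODE M21, an earlier build than the GRCm39 of the authors' annotation, without conversion, and 51424 of 55890 matched.

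Counts were rounded, filtered with filterByExpr (minimum count 10), TMM-normalized and tested with edgeR 4.0.16 (estimateDisp, glmQLFit, glmQLFTest) in R 4.3.3; genotype was the sole model term, and Benjamini-Hochberg adjustment ran over 18637 genes. Standard errors are the absolute log2 fold change over the square root of F, and 95% intervals use the total degrees of freedom. Ratios and relations used exact permutation of log2(CPM + 0.5), so that the smallest p for 4 pools against 4 is 0.0286. The edgeR, DESeq2 and limma-voom fits were tested on simulated data. Alternatives were DESeq2 1.42.0, limma-voom (limma 3.58.1), DESeq2 size factors, total counts, other filters, robust estimation, unrounded counts, a replicate block, FDR alone, a pseudocount of 2, union exon length, and pools left out. The closest pair of pools still had a chi-square of 4.39 per degree of freedom, above counting noise.

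The genes named are the 10 described; of 7 pathway lists, those with an unadjusted p under 0.05 or groups that do not overlap, filled up to 3 per list by size of change, with *Igf1r*, *Igf1*, *Pomc*, *Agrp* and *Npy*; marker genes used beside a result; the 3 most like *Lepr* and *Insr*; and *Esr1*. The members and lists were chosen with earlier results of these data known. Protein motifs were not analysed here.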

Additional observations from a re-analysis of the deposited data

Results flagged for a closer look

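In 11 of 96 groups of 4 pools searched, 1 pool lay far from the other 3, where the gap to its nearest neighbour, as a share of the group's whole range, was above Dixon's 95% critical value for 4 values. The largest share below that value was 0.816, for *Stat3* in control replicate 1. Chance gives such a gap in about 1 in 20 groups, which is 4.8 of 96. As a share of the range, the gap was 0.908 for *Socs3*, 0.969 for *Pomc*, 0.873 for *Npy* and 0.835 for *Sesn1*, each highest in control replicate 1. The same pool stood apart in the marker lists, by 0.889 for the anterior pituitary list, where it was highest, and by 0.885 for the neuronal and 0.964 for the oligodendrocyte list, where it was lowest. The gap was 0.839 for *Irs4* in control replicate 2, which was lowest. Among POMC-C451Af/f pools it was 0.854 for *Socs2* in replicate 3 and 0.853 for *Inppl1* in replicate 2, both highest, and 0.874 for the list of endothelium and mural cells in replicate 1, which was lowest.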

How the results depend on the processing

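Over 180 fits of the 10 genes under alternatives, none was called, the lowest adjusted p was 0.631, and 157 kept their direction while 23 reversed. The number of genes called was 13 with DESeq2 in place of edgeR, 2 with at least 10 counts in every pool, 2 with the replicate block and 7 without POMC-C451Af/f replicates 3 and 4, against 4. Of the 10 genes, 1 did not overlap with no filter, where 2.20% of all tested genes did not overlap. With the replicate block 1 of the 10 passed an unadjusted threshold of 0.05, as did 6.06% of all tested genes. The gene was *Stat3* in both cases. With the block its edgeR p was 0.0383 (adjusted p = 0.789). The sources used here do not say that pools with the same replicate number are paired. The deviations of pools with the same number correlated at 0.141, -0.179, -0.109 and 0.243, and 2 of 4 matched best with their own number. These few values of mixed sign do not decide whether the numbers pair the pools. With the block the log2 fold change of *Npy* was -0.0020. Total counts in place of TMM gave -0.0042 for *Sh2b1* and -0.0037 for *Insr*, and no filter gave -0.00014 for *Sh2b1*.

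Without POMC-C451Af/f replicates 3 and 4, 5 of the 81 pathway genes had an unadjusted p under 0.05, against 3.04% of all tested genes. In this fit the log2 fold change was 0.096 for *Lepr*, -0.046 for *Jak2*, 0.013 for *Ptpn1*, -0.019 for *Sh2b1*, -0.028 for *Insr*, -0.048 for *Irs1*, -0.011 for *Irs2*, 0.015 for *Foxo1*, 0.040 for *Igf2* and 0.34 for *Agrp*. The log2 ratios differed by -0.063 for *Socs3* to *Lepr*, -0.097 for *Ptpn1* to *Lepr* and 0.037 for *Irs2* to *Irs1*. This fit has fewer pools, and the cause of the other changes was not tested.

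With each pool left out in turn, the 10 genes held 0 to 1 with an unadjusted p under 0.05, 0 to 1 whose groups did not overlap, and 0 to 1 adjusted relation. Of all tested genes, 3.37% to 9.38% had such a p in these fits, and 4.61% to 8.59% did not overlap. The log2 fold change ranged from -0.023 to 0.021 for *Jak2*, -0.014 to 0.035 for *Sh2b1*, -0.011 to 0.031 for *Insr*, -0.0014 to 0.091 for *Irs1*, -0.036 to 0.029 for *Foxo1*, -0.44 to 0.035 for *Trib3*, -0.48 to 0.12 for *Agrp*, -0.17 to 0.20 for *Npy* and -0.14 to 0.018 for *Osmr*. Without a change of sign it ranged from -0.31 to -0.051 for *Lepr*, -0.86 to -0.021 for *Igf2*, -0.81 to -0.25 for *Bcl3*, -0.23 to -7.7e-05 for *Socs1*, -0.29 to -0.061 for *Cebpd*, -0.15 to -0.028 for *Klf15*, -0.17 to -0.063 for *Eif4ebp1*, -0.69 to -0.28 for *Pomc* and -0.25 to -0.13 for *Mc4r*. It ranged from 0.044 to 0.15 for *Socs3*, 0.016 to 0.056 for *Ptpn1*, 0.0087 to 0.085 for *Irs2*, 0.20 to 0.39 for *Socs2*, 0.061 to 0.14 for *Ptpn2*, 0.011 to 0.052 for *Igf1r*, 0.012 to 0.12 for *Sos1* and 0.17 to 0.47 for *Igf1*. The difference in log2 ratio ranged from -0.00053 to 0.053 for *Ptpn1* to *Insr* and from -0.031 to 0.043 for *Irs2* to *Irs1*. Without a change of sign, this difference ranged from 0.13 to 0.38 for *Socs3* to *Lepr* and from 0.052 to 0.32 for *Ptpn1* to *Lepr*. All tested genes with an unadjusted p under 0.05 numbered 635 to 1773 in these fits, against 950. Of the 10 genes, depth limits *Lepr* and *Socs3* most, at 90.0 to 217.5 and 100.3 to 132 estimated counts per pool. Some other pathway genes had fewer in their lowest pool, such as *Bcl3* at 12 to 56, *Trib3* at 15 to 50 and *Agrp* at 41 to 164 counts.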
